A study of Homo sapiens with 6 samples.

Results

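The genes described here are IGF2, the receptor IGF2R, the acid-labile subunit IGFALS and the IGF binding proteins IGFBP1 to IGFBP7, chosen by name from the deposited table of gene counts. The 10 symbols matched 11 of the 26184 genes and loci listed, because IGF2 appears under 2 Ensembl identifiers. The table covers 6 samples, 3 from each of the lines Huh7 P and Huh7 LR. Huh7 P is the parental line of Huh7, a human hepatocellular carcinoma cell line, and received no drug. Huh7 LR is a resistant line derived from it by exposure to lenvatinib, an inhibitor of several receptor tyrosine kinases, at 1 to 20 μM over 10 months. No genetic change was introduced in either group. Huh7 LR is a single derived line, so lenvatinib exposure and any other change during its derivation cannot be told apart. The study kept the established line in medium with lenvatinib at 20 μM, without saying separately whether the drug was in the medium of the RNA samples. The study calls the 3 samples of each line independent without saying how they were separated, and p-values measure the spread between these samples.

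IGF2 is a fetal growth factor whose gene is imprinted, and it is often re-expressed in liver cancer. It acts through the receptor tyrosine kinases IGF1R and INSR, whereas IGF2R, the cation-independent mannose-6-phosphate receptor, carries it to lysosomes for degradation. The binding proteins hold IGFs in extracellular fluid, limit or prolong their access to receptors, and are cut by proteases that release the ligand. IGFALS, made by hepatocytes, joins an IGF and IGFBP3 or IGFBP5 in the large circulating complex.

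IGFBP1 to IGFBP5 share a short cysteine-rich stretch in the amino-terminal domain that binds IGF. It is shown here because an exact search for it divides the 7 numbered binding proteins into those that match and those that do not. The stretch was searched in each coding sequence of GENCODE release 29 (GRCh38) as 8 codons in the order glycine, cysteine, glycine, cysteine, cysteine, any, any, cysteine, and the cysteine codons are in capitals. The positions are chr7:45888818-45888841 on the plus strand for IGFBP1, chr2:216633770-216633793 on the plus strand for IGFBP2 and chr7:45920922-45920945 on the minus strand for IGFBP3. They are chr17:40443889-40443912 on the plus strand for IGFBP4 and chr2:216694599-216694622 on the minus strand for IGFBP5.
IGFBP1: ggcTGCggcTGTTGCccgatgTGC
IGFBP2: ggcTGCggcTGCTGCtcggtgTGC
IGFBP3: ggcTGCggcTGCTGCctgacgTGC
IGFBP4: ggcTGCggcTGTTGCgccactTGC
IGFBP5: ggcTGCggcTGCTGCatgaccTGC
No such run of codons was found in IGFBP6 or IGFBP7, although these coding sequences hold 16 and 18 cysteine codons. The search fixed the glycines as well as the cysteines. A stretch with the same cysteines but another residue in place of a glycine would be missed, so a similar stretch in these genes is not excluded. IGFBP6 is known for a preference for IGF2 over IGF1, and IGFBP7 for its weak binding of IGFs. Among the 4 numbered binding proteins with enough counts to test, the 2 that match the search, IGFBP3 and IGFBP4, were higher in Huh7 LR. IGFBP6 and IGFBP7, which do not match it, had lower means there and did not pass the test. This division was made after the values had been seen and was not tested.

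Total counts were 62738937 to 71427573 per Huh7 P library and 63233655 to 70768720 per Huh7 LR library, so that a count of 0 allows up to 3 counts, or 0.0420 to 0.0478 CPM (counts scaled to library size), for counting error only. Levels are given as CPM scaled by edgeR's TMM factors, and ± marks the SD over 3 libraries throughout. Hepatocyte markers were abundant in all libraries, with ALB at 12950 ± 1186 CPM in Huh7 P and 21560 ± 1203 CPM in Huh7 LR, and with HNF4A at 325.1 and 311.8 CPM. Of these 8 markers, 5 were higher in Huh7 LR and 3 did not pass (23.3% of all genes and loci tested were higher), and FGB was called higher (4.43% of all tested), from 175 ± 18.4 to 983 ± 138 CPM. Of 7 fibroblast markers, DCN and THY1 were at 0, COL1A1 was called higher in Huh7 LR (4.43% of all tested), PDGFRB was higher without a call, and the summed level was 0.378 to 0.428 FPKM (fragments scaled to transcript length and library size) in Huh7 P and 0.848 to 1.68 FPKM in Huh7 LR. Of 5 endothelial markers, CDH5, KDR and TEK were at 0 and PECAM1 was higher in Huh7 LR. VWF had 0, 0 and 8 counts against 19, 26 and 21 and reached the count minimum through Huh7 LR alone. The sums were 5.41 to 6.46 and 8.96 to 9.80 FPKM, nearly all from PECAM1 (means of 6.04 FPKM in Huh7 P and 9.47 FPKM in Huh7 LR). Of 6 leukocyte markers, TYROBP and HLA-DRA were at 0 and PTPRC was too low to test. LYZ was called lower in Huh7 LR (1.78% of all tested). CD14 (log2 fold change 0.53) and CD74 (0.52) had higher means there and did not pass. The sums were 37.0 to 40.9 and 5.94 to 8.10 FPKM. LYZ made up most of them, with means of 38.3 FPKM in Huh7 P and 5.61 FPKM in Huh7 LR. The part of these markers in the results below was not tested. In RNA from a whole culture, fewer cells that express a gene and less RNA per cell cannot be told apart.

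The comparison of Huh7 LR with Huh7 P asks how the ligand, its receptors and its binding proteins differ between a lenvatinib-resistant line and its parent. IGF2, IGF2R, IGFBP3 and IGFBP4 were modestly higher in Huh7 LR, and no gene of the set was shown to be lower. Counts of 8 of the 11 rows, belonging to 7 symbols, were high enough to test with edgeR's quasi-likelihood test, and IGFBP1, IGFBP2 and IGFBP5 were not. None of the 8 was called, which required a more than 2-fold change with an adjusted p below 0.001. That call was made for 6.21% of all 17531 genes and loci tested, 4.43% as higher and 1.78% as lower in Huh7 LR. The IGF2 row ENSG00000284779 reached the count minimum through Huh7 LR alone, so its direction was favoured by the filter, and it is left out of the following counts. Of the other 7 rows, 4 were higher at the level of 0.05 for the adjusted p, with no limit on size, against 23.3% of all tested. None was lower at that level, against 22.4% of all tested, and 3 did not pass (45.7% of all tested passed in either direction). At an unadjusted p under 0.05 there were 6 of the 7, against 52.7% of all tested. Their median log2 fold change was 0.38, beside 0.005 for all genes and loci tested. In 6 of the 7 the libraries of the lines did not overlap, as in 55.9% of all tested. In 5 of these Huh7 LR was above Huh7 P (28.2% of all tested), and in 1, IGFBP6, it was below.

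**Figure D1:**
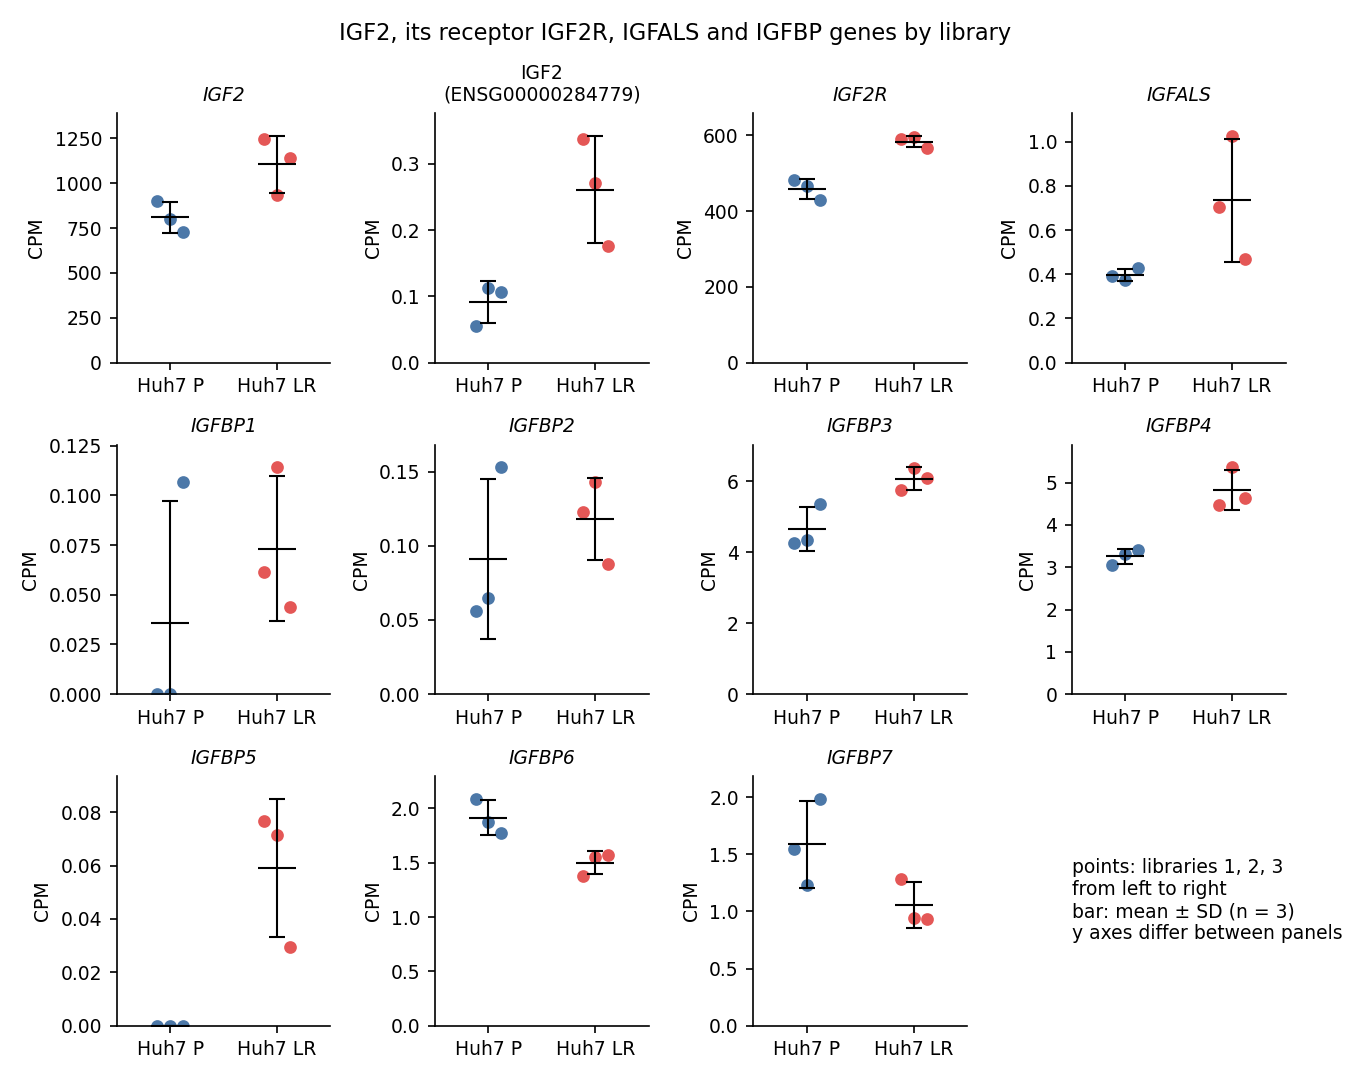
Level of each gene in CPM (vertical axis, from 0, with a different scale in each panel) in 3 Huh7 P and 3 Huh7 LR libraries (points, libraries 1 to 3 from left to right), with mean ± SD. IGF2R, IGFBP3 and IGFBP4 lay higher in all Huh7 LR libraries than in any Huh7 P library, the IGFBP7 ranges overlapped, and IGFBP5 had no count in Huh7 P.

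**Figure D2:**
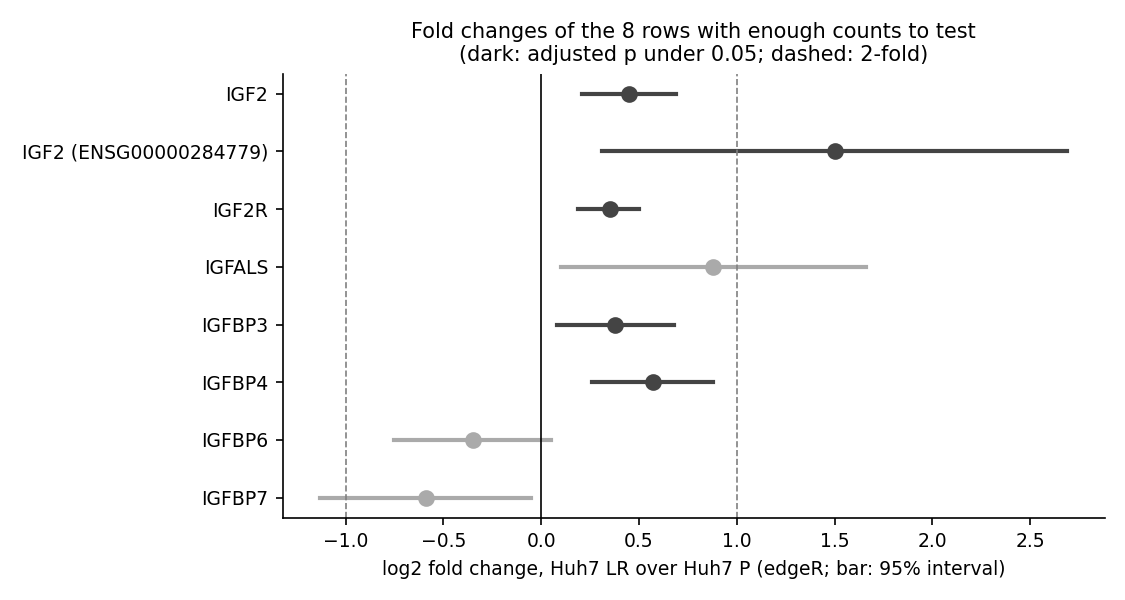
Log2 fold change of Huh7 LR over Huh7 P (horizontal axis) with its 95% interval for the 8 rows tested by edgeR, dark where the adjusted p was under 0.05, with dashed lines at 2-fold. IGF2, IGF2R, IGFBP3 and IGFBP4 lay between 0.35 and 0.57, and the interval of the IGF2 row ENSG00000284779, whose test was favoured by the count filter, ran from 0.31 to 2.69.

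IGF2 (ENSG00000167244, chromosome 11, 2129112 to 2149603 on the minus strand, GRCh38) was the most abundant gene of the set. Its level was 901, 799 and 729 CPM in the Huh7 P libraries and 1244, 933 and 1143 CPM in the Huh7 LR libraries. All Huh7 LR libraries lay above all Huh7 P libraries, and the gap between Huh7 LR replicate 2 and Huh7 P replicate 1 was small beside the spread within each line. The mean rose from 810 ± 86.2 to 1106 ± 159 CPM, a log2 fold change of 0.45 (standard error 0.11, 95% interval 0.21 to 0.69, edgeR adjusted p = 0.00640). This is 1.37-fold. Its share of all counts was 0.0801% in Huh7 P and 0.112% in Huh7 LR.

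The other IGF2 row (ENSG00000284779, chromosome 11, 2129112 to 2158658 on the minus strand) is an annotated gene that shares 5144 exon bases with the main row, 87.9% of its own exon length. The Huh7 P libraries gave it 4, 7 and 7 counts, and the Huh7 LR libraries 22, 19 and 12. The lines did not overlap, yet this row reached the count minimum through Huh7 LR alone. Since the filter favoured this direction, its fitted log2 fold change of 1.5 (95% interval 0.31 to 2.69) is given as a description only. With each library left out in turn the fitted value was 1.23 to 1.71. The row held 0.00619% to 0.0291% of the IGF2 counts, and reads from the shared exons could have been assigned to either row. INS-IGF2, a read-through from the insulin gene into IGF2, shares 1460 exon bases with IGF2 and had no count in any library. Summing these rows with IGF2 left the log2 fold change at 0.45. The table used here lists no row for H19 or IGF2-AS.

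IGF2R (chromosome 6, 159969099 to 160113507 on the plus strand) was next in level, at 482, 465 and 429 CPM in Huh7 P and 589, 595 and 566 CPM in Huh7 LR. The lines were well separated, and the Huh7 LR libraries differed little among themselves. The mean rose from 458.5 ± 26.7 to 583 ± 15.6 CPM, a log2 fold change of 0.35 (standard error 0.07, 95% interval 0.19 to 0.50, edgeR adjusted p = 0.00199), which is 1.27-fold. The ratio of IGF2 to IGF2R in FPKM was 4.88, 4.43 and 4.39 in the Huh7 P libraries against 5.09, 4.17 and 4.64 in those of Huh7 LR. These ranges overlapped (exact two-sided permutation test, p = 1), and a difference between the lines in this ratio was not shown.

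The signalling receptors moved in opposite directions. IGF1R, the main receptor for IGF1 and IGF2, fell from 67.5 ± 6.81 to 46.4 ± 2.98 CPM (log2 fold change -0.54, standard error 0.09, edgeR adjusted p = 0.000482). INSR, the insulin receptor, one isoform of which also binds IGF2, rose from 105.6 ± 6.44 to 146.2 ± 9.88 CPM (log2 fold change 0.47, standard error 0.08, edgeR adjusted p = 0.000545). Gene counts do not separate the INSR isoforms. The ratio of INSR to IGF1R in FPKM was 2.09, 2.14 and 2.27 in the Huh7 P libraries against 4.30, 4.15 and 4.66 in those of Huh7 LR. This ratio was chosen after the values of both genes had been seen and is given as a description.

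Promoter sequence from RefSeq (GRCh38.p14) was given for 7 of the 10 symbols, and the 250 bases before the start are shown for IGF2R and IGFBP4, which like IGF2 were higher in Huh7 LR in all 14 alternative analyses. The motifs searched on both strands were CACGTG (the E-box core bound by MYC and related factors), TATAAA and TATATA, in capitals, and GGGCGG (the GC box), left in lower case. No capitalised match overlapped another motif, and 2 of the GGGCGG matches of IGF2R overlap each other. In the IGF2R window, chr6:159968832-159969081 on the plus strand, CACGTG begins 132, 74 and 28 bases before the start, and GGGCGG occurs 6 times.
IGF2R: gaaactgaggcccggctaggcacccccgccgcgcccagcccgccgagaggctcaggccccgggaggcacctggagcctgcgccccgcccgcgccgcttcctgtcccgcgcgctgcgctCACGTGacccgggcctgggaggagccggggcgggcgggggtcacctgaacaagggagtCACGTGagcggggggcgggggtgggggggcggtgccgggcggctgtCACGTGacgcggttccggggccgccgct
IGFBP4: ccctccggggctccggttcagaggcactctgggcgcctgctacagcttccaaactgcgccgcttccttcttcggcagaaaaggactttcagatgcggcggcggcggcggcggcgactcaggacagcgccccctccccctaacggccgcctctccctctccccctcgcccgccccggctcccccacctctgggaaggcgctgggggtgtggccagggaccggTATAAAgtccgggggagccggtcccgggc
The IGFBP4 window, chr17:40443200-40443449 on the plus strand, holds 1 TATAAA and 1 GGGCGG. Of 35116 promoter windows of this length, 6.34% hold at least 1 CACGTG and 28 (0.0797%) hold at least 3. TATAAA is present in 10.7% of the windows and GGGCGG in 42.6%, with at least 3 GGGCGG in 13.9%. These are matches of letters only, and binding was not measured.

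Among the binding proteins, IGFBP3 and IGFBP4 were higher in Huh7 LR. IGFBP3 (chromosome 7, 45912245 to 45921874 on the minus strand), the main IGF carrier in serum, was at 4.26, 4.34 and 5.35 CPM in Huh7 P and 5.74, 6.38 and 6.10 CPM in Huh7 LR. The lines did not overlap, with Huh7 P replicate 3 close to Huh7 LR replicate 1. The mean rose from 4.65 ± 0.607 to 6.07 ± 0.322 CPM, a log2 fold change of 0.38 (standard error 0.14, 95% interval 0.08 to 0.68, edgeR adjusted p = 0.0382). The difference did not pass with the Wald test of DESeq2 (adjusted p = 0.0523). It also did not pass without Huh7 P replicate 1 (edgeR adjusted p = 0.132), Huh7 P replicate 2 (0.134), Huh7 LR replicate 2 (0.0798) or Huh7 LR replicate 3 (0.0957).

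IGFBP4 (chromosome 17, 40443461 to 40457731 on the plus strand), a binding protein that restrains IGF action until PAPPA cuts it, was at 3.05, 3.31 and 3.41 CPM in Huh7 P and 4.46, 5.37 and 4.65 CPM in Huh7 LR. Each Huh7 LR library was above each Huh7 P library, and the gap exceeded the spread of Huh7 P. The mean rose from 3.26 ± 0.185 to 4.82 ± 0.477 CPM, a log2 fold change of 0.57 (standard error 0.14, 95% interval 0.26 to 0.88, edgeR adjusted p = 0.00669), which is 1.48-fold. Its adjusted p stayed under 0.05 in all 14 alternative analyses.

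IGFBP6 and IGFBP7 had lower means in Huh7 LR without passing the test. IGFBP6 (chromosome 12, 53097436 to 53102345 on the plus strand) had counts of 150, 116 and 116 in the Huh7 P libraries against 90, 109 and 107 in those of Huh7 LR. All Huh7 LR libraries were below all Huh7 P libraries in CPM, with means of 1.91 ± 0.161 and 1.5 ± 0.105 CPM (log2 fold change -0.35, standard error 0.18, 95% interval -0.75 to 0.05, edgeR adjusted p = 0.143). IGFBP7 (chromosome 4, 57030773 to 57110385 on the minus strand) had counts of 111, 76 and 130 in the Huh7 P libraries against 84, 66 and 64 in those of Huh7 LR. Its ranges overlapped, with means of 1.59 ± 0.380 and 1.06 ± 0.201 CPM (log2 fold change -0.59, standard error 0.25, 95% interval -1.13 to -0.05, edgeR adjusted p = 0.0727). Without Huh7 LR replicate 1 the IGFBP7 difference passed the 0.05 level, at -0.76 (edgeR adjusted p = 0.0343). Without Huh7 P replicate 3 it was -0.40 (adjusted p = 0.268), and the other omissions gave adjusted p of 0.0510 to 0.191.

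IGFBP7 shares 270 exon bases, 14% of its exon length, with POLR2B, an RNA polymerase II subunit gene on the opposite strand. POLR2B was much more abundant and fell from 220.7 ± 7.77 to 161.7 ± 4.49 CPM (log2 fold change -0.45, standard error 0.07, edgeR adjusted p = 0.000252). Whether counting used strand is not stated, and without strand the reads of IGFBP7 and POLR2B in these bases cannot be told apart.

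IGFBP1, IGFBP2 and IGFBP5 were near the limit of detection in both lines. IGFBP1 (chromosome 7, 45888357 to 45893668 on the plus strand), a binding protein of the liver repressed by insulin, had counts of 0, 0 and 7 in the Huh7 P libraries against 4, 8 and 3 in those of Huh7 LR. The ratio of CPM over the pooled libraries was 2.14, with an exact 95% counting interval of 0.822 to 6.21, so a difference was not detectable at this depth. IGFBP2 (chromosome 2, 216632828 to 216664436 on the plus strand), a major fetal binding protein, had counts of 4, 4 and 10 against 8, 10 and 6. The pooled ratio was 1.33 (exact 95% counting interval 0.693 to 2.61), likewise not a detectable difference. IGFBP5 (chromosome 2, 216672105 to 216695525 on the minus strand), a binding protein that also attaches to extracellular matrix, had no count in the parental libraries and 5, 5 and 2 in the resistant ones. No fold is given for IGFBP5, since Huh7 LR replicate 3 lay under the limit of 3 counts per library. In the edgeR analysis without a count filter it did not pass (unadjusted p = 0.0395, adjusted p = 0.0985).

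IGFALS (chromosome 16, 1790413 to 1794971 on the minus strand) had counts of 28, 23 and 28 in the Huh7 P libraries against 46, 72 and 32 in those of Huh7 LR. The lines did not overlap in CPM, and Huh7 LR replicate 2 was more than double replicate 3 in counts. The means were 0.397 ± 0.0284 and 0.734 ± 0.280 CPM (log2 fold change 0.88, standard error 0.35, 95% interval 0.10 to 1.66, edgeR adjusted p = 0.0620). IGFALS passed without Huh7 LR replicate 3 (log2 fold change 1.12, edgeR adjusted p = 0.0313) and with a minimum of 10 counts in every library (0.90, adjusted p = 0.0374). Without Huh7 LR replicate 2 it was 0.57 (edgeR adjusted p = 0.258), and the DESeq2 Wald test (adjusted p = 0.133) and the replicate block (adjusted p = 0.102) did not pass. IGFALS shares 64 exon bases with SPSB3 on the same strand, which itself rose by 0.36 on the log2 scale (edgeR adjusted p = 0.00360).

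Levels of different genes can be compared per length, in FPKM as the authors gave it. IGF2 (145.5 FPKM in Huh7 P and 200.9 in Huh7 LR) and IGF2R (31.8 and 43.25 FPKM) were far above the binding proteins in both lines. In Huh7 P the order went on with IGFBP3 (1.89 FPKM), IGFBP6 (1.5), IGFBP4 (1.36), IGFBP7 (1.02) and IGFALS (0.173), and only IGFBP6 and IGFBP4 overlapped among these neighbours. In Huh7 LR the order was IGFBP3 (2.52 FPKM), IGFBP4 (2.05), IGFBP6 (1.20), IGFBP7 (0.712) and IGFALS (0.377), with no overlap between neighbours. IGFBP2, IGFBP1 and the IGF2 row ENSG00000284779 followed in both lines with overlapping neighbours, and IGFBP5 was last.

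The summed FPKM of IGFBP1 to IGFBP7 was 5.75, 5.47 and 6.34 in the Huh7 P libraries against 6.48, 6.88 and 6.40 in those of Huh7 LR. The sums did not overlap, though Huh7 P replicate 3 nearly reached Huh7 LR replicate 3. The means were 5.85 ± 0.445 and 6.59 ± 0.260 FPKM, a log2 ratio of 0.17 (exact two-sided permutation test, p = 0.1, the smallest that 3 against 3 allows). The make-up of the sum also differed in its means. IGFBP3 took 32.3% ± 1.80 of it in Huh7 P and 38.2% ± 0.762 in Huh7 LR, and IGFBP4 took 23.2% ± 1.69 and 31.1% ± 1.70. IGFBP6 took 25.8% ± 3.71 and 18.2% ± 1.21, and IGFBP7 took 17.2% ± 2.75 and 10.8% ± 2.86. For each of these 4 shares the lines did not overlap (exact two-sided permutation test, p = 0.1, unadjusted), and shares of 1 sum are not independent of each other.

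**Figure D3:**
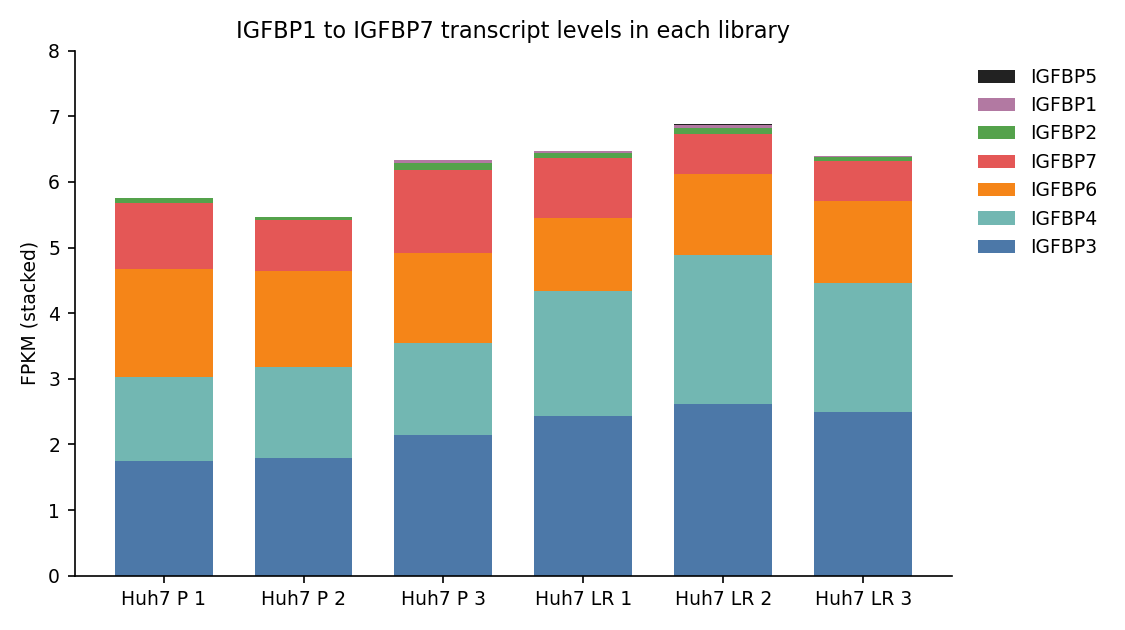
Stacked FPKM of IGFBP1 to IGFBP7 (vertical axis, from 0) in each Huh7 P and Huh7 LR library (horizontal axis). The sums lay between 5.47 and 6.88 FPKM, and the IGFBP3 and IGFBP4 segments were taller in each Huh7 LR library than in any Huh7 P library, while IGFBP1, IGFBP2 and IGFBP5 were barely visible.

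IGF2 divided by the summed binding proteins was 28.6, 26.1 and 20.4 in the Huh7 P libraries against 35.0, 24.7 and 32.2 in those of Huh7 LR. The ranges overlapped, with means of 25 ± 4.2 and 30.6 ± 5.36 (exact two-sided permutation test, p = 0.3). A difference in this transcript ratio was therefore not shown. RNA levels do not give the amounts of secreted protein.

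The wider pathway was read from lists of genes named for their roles. Of 12 ligands, receptors and adapters, 8 were tested. At the 0.05 level 3 of these were higher, 4 were lower and 1 did not pass, with a median log2 fold change of -0.08. Over all genes and loci tested, 23.3% were higher and 22.4% lower. GRB10, an adapter that restrains INSR and IGF1R signalling, rose from 55.1 ± 1.14 to 81.8 ± 0.999 CPM (0.57, edgeR adjusted p = 3.42e-05). GAB1, a docking protein, fell by 0.32 on the log2 scale (adjusted p = 0.00520), and SHC1, an adapter to RAS signalling, fell by 0.26 (adjusted p = 0.0200). GAB1 did not pass with limma on FPKM, and SHC1 did not pass without Huh7 P replicate 2, Huh7 P replicate 3 or Huh7 LR replicate 3 (log2 fold changes -0.31 to -0.20). IGF1 itself was sparse, with 5, 9 and 30 counts in the parental libraries against 2, 13 and 9 in the resistant ones, and INS had none.

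Of 11 proteases that cut binding proteins and their inhibitors, 6 were tested, 3 were higher, 2 lower and 1 did not pass (23.3% and 22.4% of all tested were higher and lower), with a median of 0.20. PLAU, the urokinase plasminogen activator, was called higher (4.43% of all tested), from 3.09 ± 0.412 to 9.62 ± 0.552 CPM (log2 fold change 1.64, standard error 0.14, edgeR adjusted p = 5.52e-06). PAPPA, which cuts IGFBP4, rose from 1.33 ± 0.432 to 2.31 ± 0.429 CPM (0.80, standard error 0.25, edgeR adjusted p = 0.0234). STC2, an inhibitor of PAPPA, fell from 140.8 ± 3.10 to 93.4 ± 11 CPM (-0.59, edgeR adjusted p = 0.000232). ADAM9, a membrane metalloprotease, fell from 299.2 ± 13.2 to 178.6 ± 12.4 CPM (-0.74, adjusted p = 1.97e-05), and the lysosomal protease CTSD rose by 0.24 on the log2 scale (adjusted p = 0.0219). PAPPA did not pass without Huh7 P replicate 1 or 3 or Huh7 LR replicate 2 or 3 (log2 fold changes 0.61 to 1.08 with each library left out), nor did CTSD without Huh7 P replicate 2 or 3 or Huh7 LR replicate 1 or 3 (0.20 to 0.31).

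All 7 genes of the growth hormone axis, which drives IGF1 and IGFALS in liver, were tested, and 4 were higher (23.3% of all tested), none lower (22.4%) and 3 did not pass, with a median of 0.36. SOCS2, a feedback inhibitor of the pathway, rose from 19.7 ± 2.03 to 30.6 ± 2.64 CPM (0.63, edgeR adjusted p = 0.000385). GHR, the growth hormone receptor, rose from 15.6 ± 0.220 to 20.8 ± 1.61 CPM (0.42, edgeR adjusted p = 0.00293). STAT5B, the transcription factor below GHR, rose by 0.21 on the log2 scale (edgeR adjusted p = 0.0170), and SOCS3, another feedback inhibitor, by 0.54 (adjusted p = 0.0357). STAT5B did not pass without any 1 of the Huh7 P libraries (0.20 to 0.22 with each library left out). SOCS3 did not pass with the DESeq2 Wald test, or without any 1 library but Huh7 LR replicate 1 (0.38 to 0.70).

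Of the genes at the IGF2 locus and its regulators, 9 were tested, 3 were higher (23.3% of all tested), 3 lower (22.4%) and 3 did not pass, with a median of -0.01. HMGA2, a chromatin protein that acts upstream of PLAG1 and IGF2, was called lower (1.78% of all tested), from 338 ± 4.29 to 155.5 ± 15 CPM (log2 fold change -1.12, standard error 0.08, edgeR adjusted p = 2.06e-06). PLAG1, whose value is given here after it was seen, did not pass (-0.44, edgeR adjusted p = 0.0698). The RNA-binding proteins named for IGF2 mRNA did not move together. IGF2BP1 fell from 404.1 ± 50.6 to 291.2 ± 11.3 CPM (-0.47, edgeR adjusted p = 0.00151), whereas IGF2BP2 rose from 170.4 ± 2.66 to 209.1 ± 14.8 CPM (0.30, adjusted p = 0.00596). IGF2BP3, named here to complete the family after its value was seen, rose by 0.25 (edgeR adjusted p = 0.0273), but did not pass without Huh7 P replicate 1 or 2 or Huh7 LR replicate 1 or 3 (0.20 to 0.34). PLAGL1, an imprinted zinc finger factor, rose by 0.47 (adjusted p = 0.00402). CTCF, the insulator protein of the imprinting control region, fell by 0.33 on the log2 scale (adjusted p = 0.00870).

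Of 12 other genes with an IGFBP domain, 4 were tested and all 4 were higher, 2 of them called, with a median of 0.99. Over all genes and loci tested, 23.3% were higher and 4.43% were called higher, and this list was written with earlier results of these data known. CYR61, a matricellular protein, was called higher, from 7.11 ± 0.629 to 19.2 ± 5.50 CPM (log2 fold change 1.43, standard error 0.18, edgeR adjusted p = 9.37e-05). KAZALD1 was called higher, from 12.5 ± 0.977 to 27.1 ± 0.274 CPM (1.11, edgeR adjusted p = 3.76e-06). CRIM1, a transmembrane protein, rose by 0.87 (adjusted p = 4.44e-06), and CTGF, a relative of CYR61, rose by 0.78 (adjusted p = 3.45e-05). The other lists were also written with such results known, and no list was tested as a set.

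**Figure D4:**
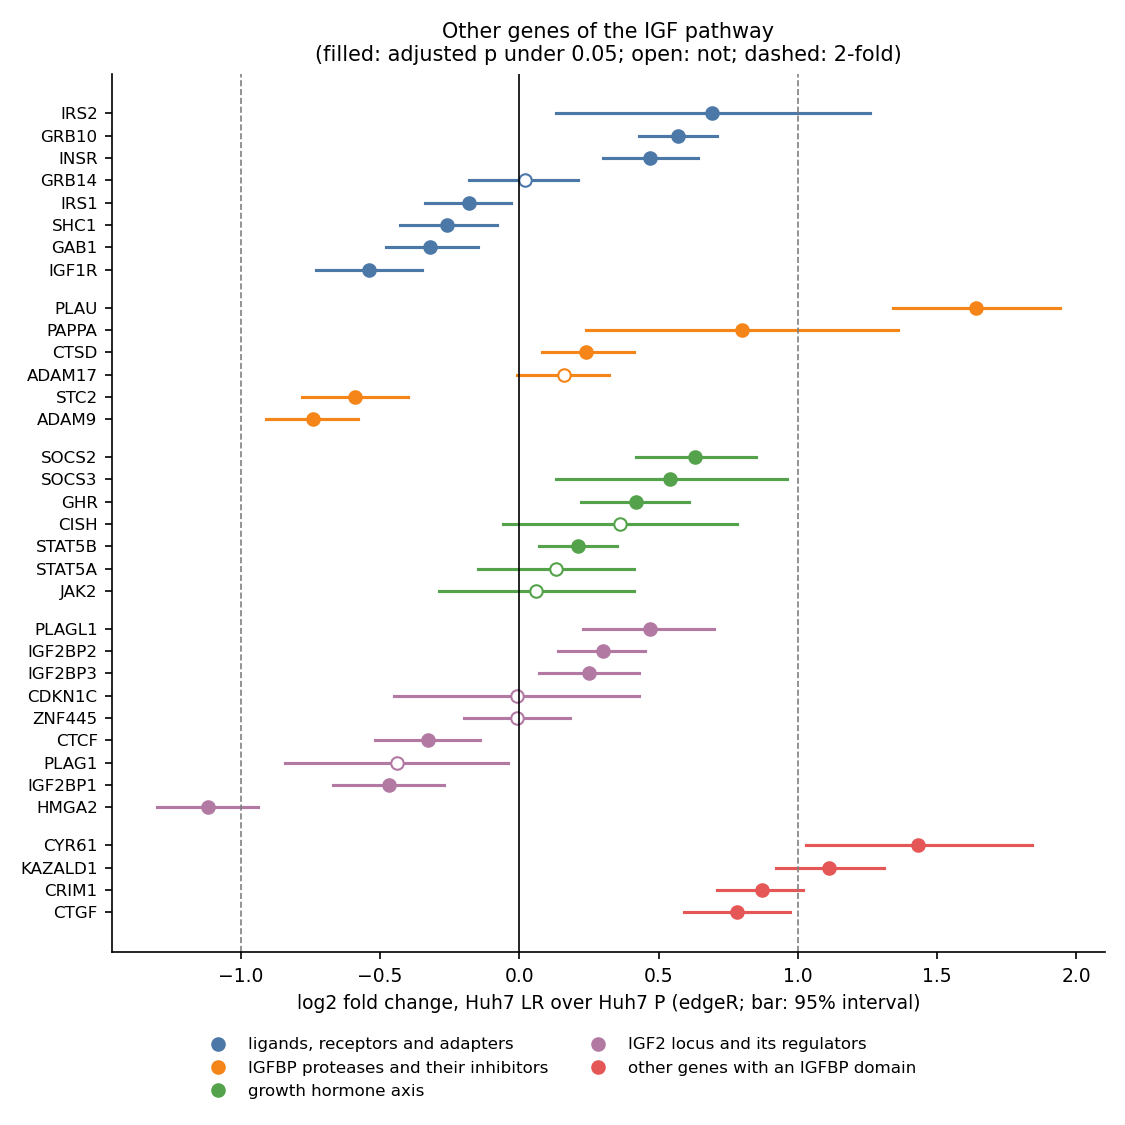
Log2 fold change of Huh7 LR over Huh7 P (horizontal axis) with its 95% interval for the tested genes of the 5 pathway lists (colours), filled where the edgeR adjusted p was under 0.05, with dashed lines at 2-fold. PLAU, CYR61 and KAZALD1 lay above 1, HMGA2 lay below -1, and IGF1R and INSR lay on opposite sides of 0.

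IGFBP1 and IGFBP3 lie 18.6 kb apart on chromosome 7, and IGFBP2 and IGFBP5 lie 7.67 kb apart on chromosome 2, so each pair shares nearly the same neighbours. For the counts of neighbours that follow, the shares of all genes and loci tested were 23.3% higher and 22.4% lower, and 4.43% called higher and 1.78% called lower. Within 1 Mb of IGFBP3, 4 genes were tested, with a median log2 fold change of 0.48, and 2 were higher and none lower. Within 1 Mb of IGFBP7, 9 genes were tested with a median of -0.45, and none was higher and 5 were lower. PPAT (-1.07) and CEP135 (-1.04) were called lower among these. Around IGF2, 19 genes were tested with a median of 0.15, of which 9 were higher and 4 lower. The 9 include KRTAP5-1 (0.00929 CPM in Huh7 P and 0.202 CPM in Huh7 LR), which reached the count minimum through Huh7 LR alone. CD81 (-1.79) was called lower and DUSP8 (2.86) higher there. Around IGF2R, IGFALS, IGFBP4 and IGFBP6 the medians of 12, 64, 29 and 34 tested genes were 0.01, 0.02, 0.13 and -0.03. Of these genes 2, 17, 10 and 6 were higher and 3, 11, 4 and 8 lower. Some, such as AMHR2 near IGFBP6 (0.0843 CPM in Huh7 P and 0.516 CPM in Huh7 LR), were sparse in Huh7 P, so the count filter could have favoured their direction. Around IGFBP2 and IGFBP5, 6 genes were tested with a median of 0.17, and 3 were higher and 1 lower. PLG near IGF2R (1.48) was called higher, and CACNA1H near IGFALS (-2.68) and HOXC5 near IGFBP6 (-1.51) were called lower. Neighbouring genes are not replicates, and these values are a description.

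**Figure D5:**
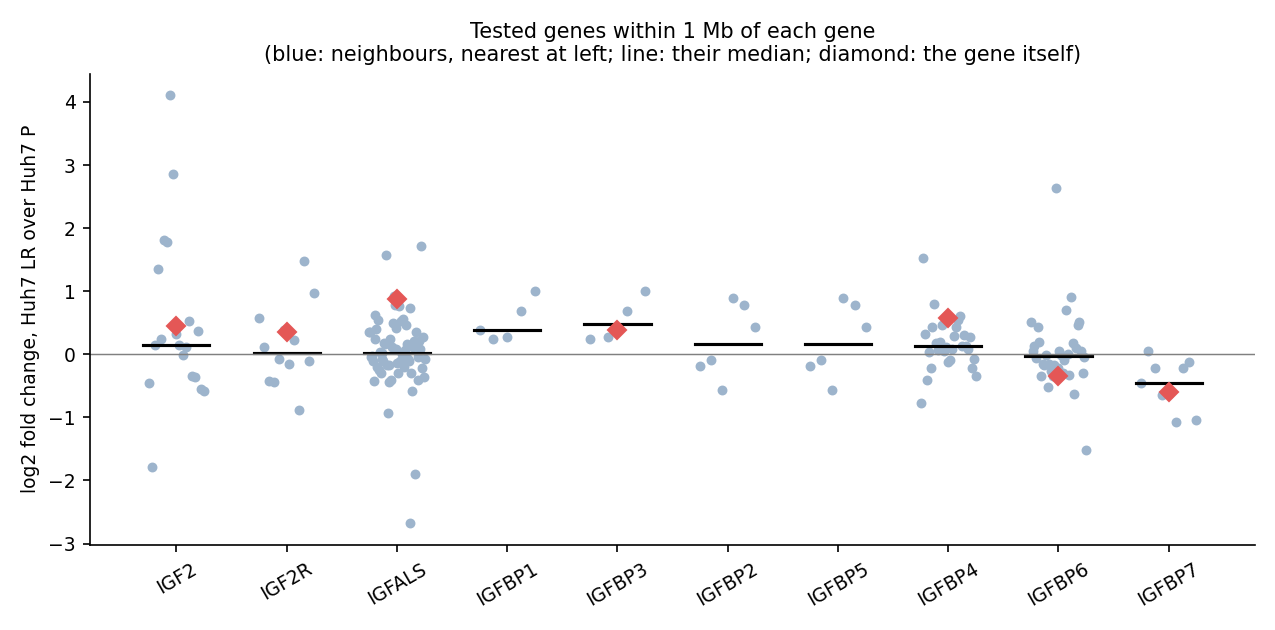
Log2 fold change of Huh7 LR over Huh7 P (vertical axis) of the tested genes within 1 Mb of each gene on the horizontal axis (blue points, nearest at left), their median (line) and the gene itself (diamond, where tested). The median was -0.45 around IGFBP7 and 0.48 around IGFBP3, and near 0 around IGF2R, IGFALS and IGFBP6.

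The pattern of IGF2 over the 6 libraries was most like that of USP46 (Pearson's r of log2 CPM 0.997), CLCN5 (0.994) and PURB (0.990) among 9743 genes with at least 10 CPM. The libraries share the difference between the lines, and 453 genes reached an r of 0.9. CLCN5 (log2 fold change 0.52, edgeR adjusted p = 0.00713) and PURB (0.36, adjusted p = 0.00686) were higher in Huh7 LR. USP46 followed IGF2 in its library-to-library order, but its difference between the lines did not pass (0.09, adjusted p = 0.291).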

How the data were processed

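RNA-seq of 3 Huh7 P and 3 Huh7 LR samples was read from 1 deposited table with a count and an FPKM value per gene and library. The authors made the counts without normalization, and the authors scaled the FPKM values for transcript length and library size. The submitters' processing notes name TopHat2, Cufflinks, DESeq and the mouse build mm10, although the identifiers are human Ensembl identifiers. The submitters' extraction label describes insect larvae. Strand use in counting is not given in the sources used here. Of 26184 genes and loci, 6210 are loci without a gene (2.86% to 3.35% of counts), and 34 lines of annotation text were dropped.

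Counts were tested with edgeR 4.0.16 (R 4.3.3), with TMM factors of 0.977 to 1.03, filterByExpr at its minimum count of 10 and total of 15, the quasi-likelihood test and Benjamini-Hochberg adjustment over 17531 genes and loci. The biological coefficient of variation was 12.7%. Calls needed more than a 2-fold change with an adjusted p below 0.001 (the study gives these levels without saying that its p was adjusted), and single differences an adjusted p below 0.05. Sums and ratios of FPKM were compared by exact permutation tests. The scripts were tested on simulated data, in which unchanged genes passed slightly more often than the nominal level when dispersions were set gene by gene. Coordinates and exon overlaps came from GENCODE release 29. Alternatives were DESeq2 1.42.0, other filters, limma 3.58.1 on log2 FPKM, a replicate block, left-out libraries, other thresholds and IGF2 summed with overlapping rows.

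Named genes were the 10 symbols, up to 5 genes a list with the smallest adjusted p under 0.05 and at least 1 CPM in 1 line, the receptors IGF1R and INSR, IGF1, INS-IGF2 and H19, and the 3 genes most like IGF2. Whether the IGF2 row ENSG00000284779 is counted was an alternative chosen after seeing the data. The members, lists and tests were chosen with earlier results of these data known.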

Additional observations from a re-analysis of the deposited data

How the results depend on the processing

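No fold change of the set reversed under the alternatives run. IGF2 (log2 fold change 0.36 to 0.57), IGF2R (0.30 to 0.44) and IGFBP4 (0.37 to 0.62) stayed at an adjusted p under 0.05 in all 14. Of the 11 rows, 0 passed an adjusted p under 0.001 and a 2-fold change, and 1, the IGF2 row ENSG00000284779, passed at an adjusted p under 0.05 and above 2-fold, as 10.6% of all tested did. At an adjusted p under 0.05, 5 rows were higher (4 with ENSG00000284779, favoured by the count filter, not counted, a choice made after seeing the data), 3 with the DESeq2 Wald test (18.9% of all tested) and 3 to 4 with each library left out in turn (3 without Huh7 P replicate 1, Huh7 P replicate 2 or Huh7 LR replicate 2; 18.6% to 23.1% of all tested). No row was lower, and 0 to 1 were lower with each library left out (1, IGFBP7, without Huh7 LR replicate 1), against 16.6% to 22.2% of all tested. The summed binding proteins kept a log2 ratio of 0.12 to 0.25, and IGF2 over that sum 0.16 to 0.42. In limma the IGF2 row ENSG00000284779 and IGFALS were too low to test. The causes of these shifts were not tested.

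Samples with the same replicate number share only that number in the labels. Their deviations correlated at 0.0824, 0.101 and 0.0334, each library correlating best with its own number, a hint from the data and not the design. With the replicate block, 4 rows were higher (23.3% of all tested) and IGF2 stayed at 0.45, and ENSG00000284779 did not pass (1.48, edgeR adjusted p = 0.0853). Depth limits IGFBP1, IGFBP2, IGFBP5 and that row most, each with under 30 counts in every library.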
